A study of Mus with 17 samples.

Results

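The genes described here are those of coagulation and fibrinolysis, the processes that form a blood clot and dissolve it. They are 35 genes, chosen by name for these roles and not for any value measured here, out of 24937 genes with a value in the files. All 35 were in the files, and all 35 were among the 13204 genes with enough counts to be tested. Transcripts were measured in whole liver of male C57BL6/JBomTac mice by bulk RNA sequencing. The western diet group, 8 mice, ate a western diet and drank water with fructose at 42 g/L for 52 weeks, which per the labels gives advanced steatohepatitis. The chow group, 9 mice of the same age, had standard chow and plain water. Both groups were of 1 inbred strain and sex, with no engineered allele stated, and all mice were fasted overnight before the liver was taken. Each mouse gave 1 library, replicates are numbered in the order in which the labels list them, and the comparison throughout is western diet against chow.

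A clot forms when a cascade of proteases turns prothrombin into thrombin, which cuts fibrinogen into fibrin. The contact or intrinsic pathway and the tissue factor or extrinsic pathway start the cascade and meet at factor X, and inhibitors such as antithrombin and protein C hold it back. Fibrinolysis is the reverse step, in which plasminogen activators turn plasminogen into plasmin, which cuts fibrin. Hepatocytes make most of the clotting factors, their plasma inhibitors and plasminogen, whereas factor VIII, von Willebrand factor, thrombomodulin, the protein C receptor and the plasminogen activators come largely from endothelial and other non-parenchymal cells.

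Western diet libraries held totals between 3604212 and 8818385.5 counts, and chow libraries between 5231165.5 and 9071908.5. Levels are given as CPM, counts relative to the TMM-scaled library size. A count of 0 is compatible with up to 3 counts, a level between 0.331 and 0.832 CPM depending on the library, which covers counting error only. CPM takes no account of transcript length, so levels of different genes are not compared. Albumin, a hepatocyte marker, made up 0.302% to 0.507% of a western diet library and 0.372% to 0.491% of a chow library. The 10 most abundant genes of a library together made up 2.70% to 4.06% of it. Counts of the most abundant genes grew less than in proportion to library depth, as given below. Western diet replicate 5 and chow replicate 2 also carried transcripts of pancreatic acinar cells, with 5007 and 15493 CPM summed over 11 marker genes, against 159 to 603 CPM in the other libraries. In whole tissue, fewer cells of a type and less RNA per cell cannot be told apart.

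Of the 35 genes, 7 rose on western diet, 6 fell and 22 did not pass the test (quasi-likelihood test in edgeR, with p adjusted by Benjamini-Hochberg over all 13204 genes and a threshold of 0.05). These shares, 20% and 17.1%, were below those of all tested genes, of which 24.8% rose and 23.6% fell. In either direction 13 of the 35 passed, and 48.4% of all tested genes did. The genes that rose were Plat, Plau, Plaur, F2r, Procr, Vwf and Serpina10. Those that fell were Klkb1, F13b, F5, Proc, F12 and F7. The median log2 difference, western diet minus chow, was 0.12 over the 35 genes and -0.01 over all tested genes. All 3 genes that rose at least 2-fold, Plat, Plau and Plaur, act in fibrinolysis. Of all tested genes 8.96% rose by that much, and 1.14% fell by as much, which none of the 35 did. With Procr, at 1.65-fold, and F2r, at 1.94-fold, 5 of the 35 rose by at least 1.5-fold, against 15.5% of all tested genes. Klkb1 was the only gene of the 35 that fell by at least 1.5-fold, against 4.45%. By role, 3 of 7 fibrinolysis genes rose and 0 fell, the single thrombin receptor rose, 2 of 9 anticoagulant genes rose and 1 fell, 1 of 8 contact and intrinsic genes rose and 2 fell, 2 of 5 extrinsic and common pathway genes fell, and 1 of 5 fibrin genes fell.

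The falls depended on the scaling. When libraries were scaled by their totals only, without TMM factors, the median log2 difference of all tested genes moved to 0.12, and 73.5% of all calls were rises, against 51.2% with TMM. Klkb1 was then the only gene of the 35 that fell, and 12 rose. Of all 13204 genes, 4485 rose and 1615 fell with that scaling. Relative to the summed counts of hepatocyte markers the median of all genes was 0.27, and of all 13204 genes 5171 rose and 499 fell. Klkb1 was again the only one of the 35 that fell, and 17 rose. The rises of Plat, Plau, Plaur, F2r, Procr, Vwf and Serpina10 passed under both scalings.

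**Figure D1:**
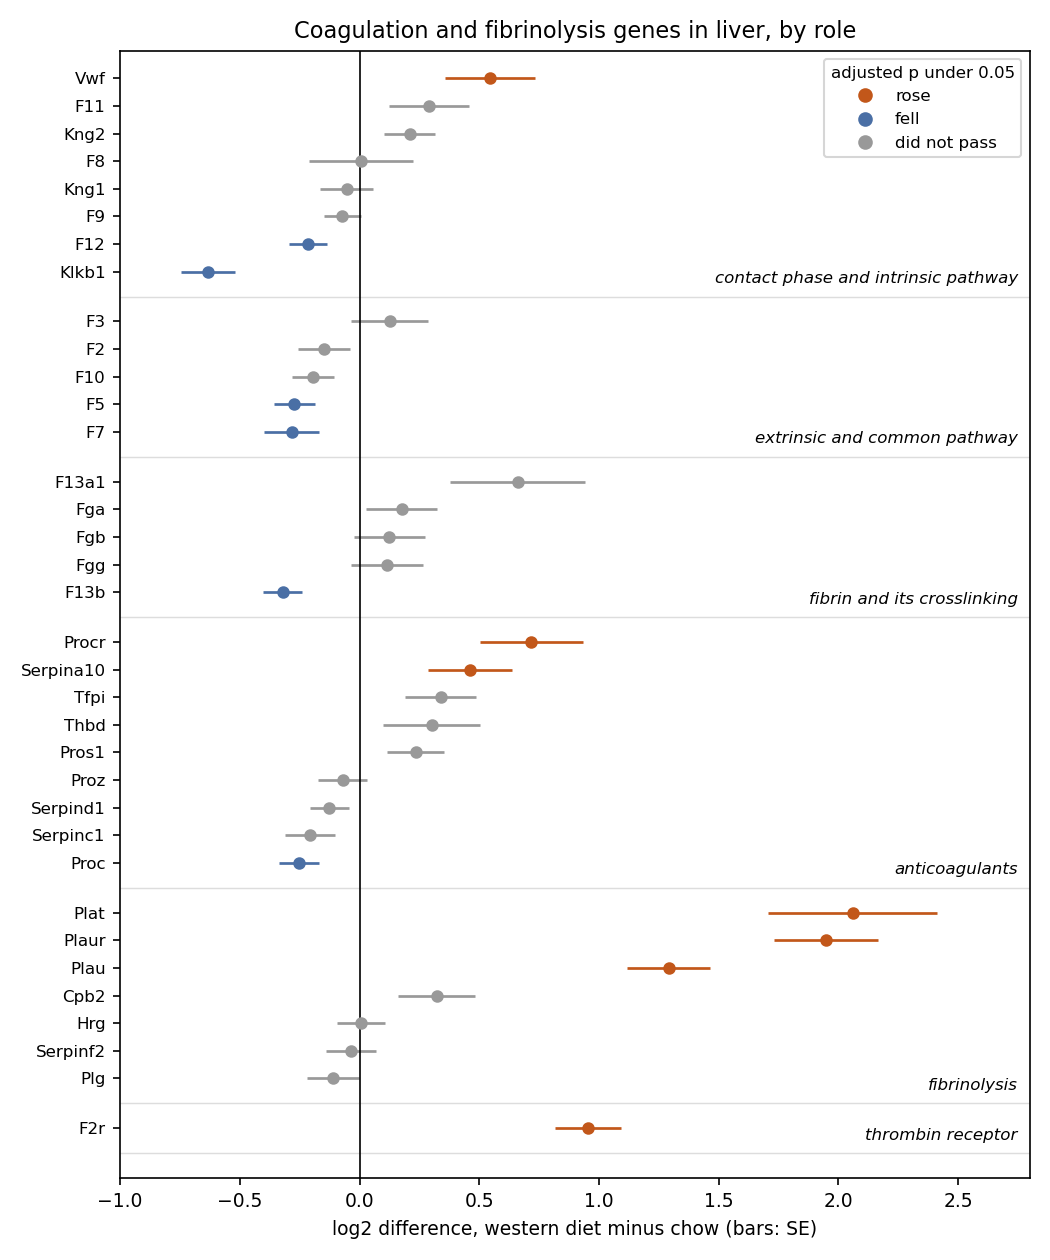
Log2 difference between western diet (n = 8) and chow (n = 9) for each of the 35 genes, grouped by role, with bars for the SE of the fit. Colour marks whether the adjusted p passed 0.05. Plat, Plaur and Plau lie farthest to the right, at 2.06, 1.95 and 1.29, and Klkb1 farthest to the left, at -0.63.

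The transcripts of both plasminogen activators and of the urokinase receptor were higher on western diet. Plau encodes urokinase, the plasminogen activator that works at cell surfaces. It had 9.31 CPM in the lowest western diet library, 14.9 CPM at the median and 22.0 CPM in the highest, against 3.59, 6.05 and 8.55 CPM in chow. Every western diet library was above every chow library. The fitted log2 difference came to 1.29 ± 0.17 (SE), 2.45-fold (edgeR, adjusted p = 5.06e-06).

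Plaur encodes the urokinase receptor, which holds urokinase on the cell. Its levels were 4.46 to 7.83 CPM with a median of 5.62 CPM on western diet, against 0.630 to 2.28 CPM with a median of 1.42 CPM on chow. Again no western diet library reached down to a chow library. On the log2 scale the difference was 1.95 ± 0.22 (SE), 3.86-fold (edgeR, adjusted p = 6.08e-07). Plau and Plaur were the 2 genes of the 35 whose groups did not overlap with western diet above, as did 6.98% of all tested genes. None of the 35 lay wholly below chow, against 5.05% of all genes.

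Plat encodes tissue plasminogen activator, the activator that works on fibrin in blood. It ranged over 3.16, 10.7 and 17.6 CPM (lowest, median, highest) on western diet and over 0.718, 2.12 and 6.85 CPM on chow. The groups overlapped through 1 library on each side, western diet replicate 3 at 3.16 CPM and chow replicate 2, the one with most pancreatic transcripts, at 6.85 CPM. The other 8 chow libraries held at most 3.05 CPM. Western diet minus chow gave a log2 difference of 2.06 ± 0.35 (SE), 4.17-fold (edgeR, adjusted p = 1.05e-04), and 2.38 without chow replicate 2 (adjusted p = 9.17e-06, the lowest of 17 fits that each left out 1 library, in which it reached 3.04e-04). Plat was counted with 4 to 149 reads per library, so single chow values carry a wide counting error. Within a library the ratio of Plau to Plat counts was 0.733 to 3.76 with a median of 1.36 on western diet, and 1.09 to 5.36 with a median of 3.05 on chow.

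F2r encodes PAR1, the receptor that thrombin activates by cutting it. Its levels were 67.1, 139 and 162 CPM (lowest, median, highest) on western diet, against 49.7, 67.8 and 76.9 CPM on chow. Western diet replicate 3, at 67.1 CPM, lay among the chow libraries, and the other 7 lay above all of them, from 99.5 CPM upwards. F2r had a log2 difference of 0.96 ± 0.14 (SE), 1.94-fold (edgeR, adjusted p = 1.60e-05). Without western diet replicate 3 it was 1.05 (adjusted p = 1.20e-07, with up to 5.75e-05 in the other leave-one-out fits). That library was the lowest of the 8 for 3 of the 35 genes, F2r, Plat and Plaur, which is fewer than an even split over the 8 libraries would give. That count takes no account of direction. The distance of each western diet library from the chow mean was also taken as a percent of that of the other western diet libraries' mean. Over the 7 genes that rose, replicate 3 had a median of 60.6%, and the others 94.3% to 131%. Over the 6 that fell, replicate 3 had 41.5%, replicate 4 had 43.3%, and the others 84.6% to 191%.

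**Figure D2:**
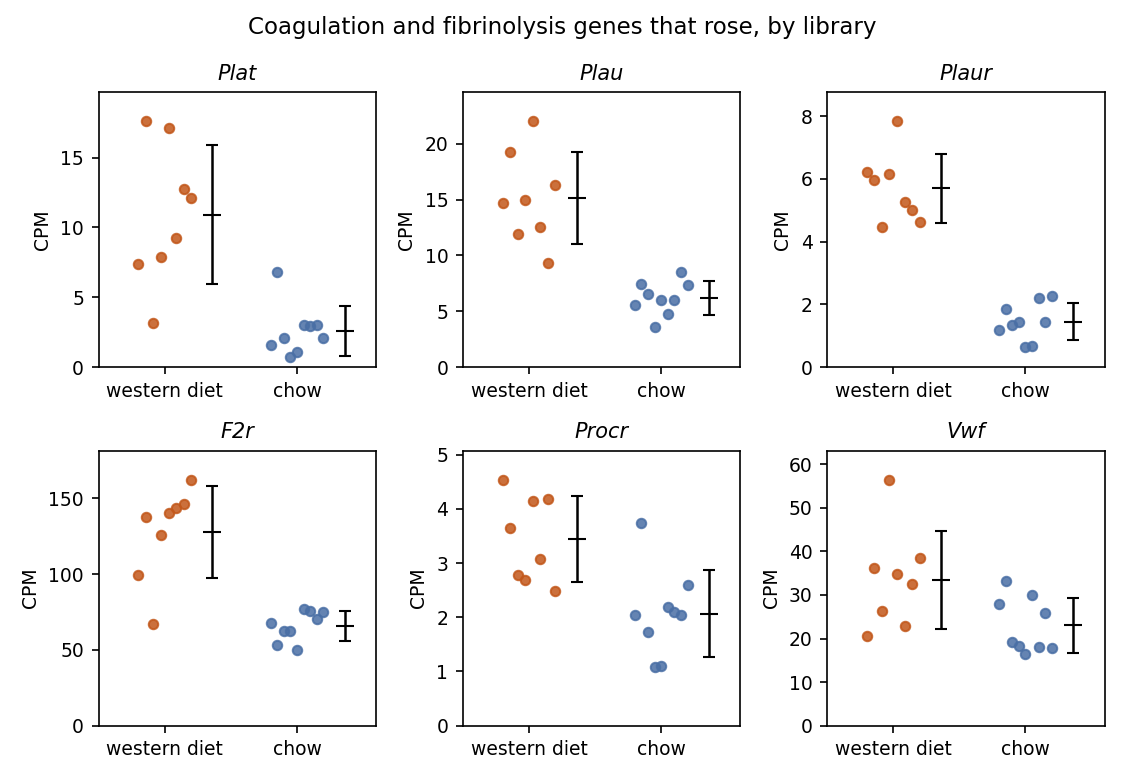
Level in each library, in CPM, of 6 of the 7 genes that rose, with western diet (n = 8) left and chow (n = 9) right in each panel, and mean ± SD beside the points. Plau and Plaur separate the groups, and chow replicate 2 is the highest chow point for Plat (6.85 CPM), Procr (3.73 CPM) and Vwf (33.3 CPM).

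Markers of several non-parenchymal cell types were higher in the same libraries, where 24.8% of all tested genes rose. All 8 macrophage markers rose, with a summed level of 1047 to 1705 CPM on western diet and 439 to 683 CPM on chow. Of 8 markers of stellate cells and fibroblasts, 6 rose, with sums of 705 to 1072 CPM on western diet and 521 to 652 CPM on chow. All 6 bile duct markers rose as well, with sums of 196 to 517 CPM on western diet and 73.3 to 139 CPM on chow. The lowest of the western diet bile duct sums belonged to replicate 3, the library low for Plat, Plaur and F2r, which held the highest western diet macrophage sum, 1705 CPM. Spp1 alone gave 159 CPM of the 196 CPM bile duct sum in replicate 3. Spp1, Epcam, Sox9, Krt7 and Cldn7 were each lowest there among western diet libraries. Krt19, at 10.6 CPM, was second there to replicate 5, at 12.5 CPM. Among macrophage markers, Adgre1 and Lyz2 were highest in replicate 3, and Trem2, at 15.6 CPM, was lowest. The 3 tested neutrophil markers also rose, and their sums over all 6 listed genes were 16.8 to 76.6 CPM on western diet and 5.98 to 12.97 CPM on chow, with the 76.6 CPM again in western diet replicate 3. The part of these cells in the rises of Plau, Plaur, Plat and F2r was not tested.

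Other genes that steer plasmin were read from a list of 11, of which 8 were tested: 3 rose and 1 fell, against 24.8% and 23.6% of all tested genes. Anxa2 encodes annexin A2, which gathers plasminogen and its tissue activator on cell surfaces. With 50.2 to 143 CPM on western diet and 23.0 to 38.6 CPM on chow it did not overlap, and its log2 difference was 1.94 (edgeR, adjusted p = 3.53e-08). Plgrkt, a plasminogen receptor, rose by 0.88 on the log2 scale (adjusted p = 2.25e-04), and S100a10, the partner of annexin A2, was the other one that rose. Serpine2, protease nexin-1, which inhibits thrombin and urokinase, was the one that fell, with 15.3 to 34.3 CPM on western diet and 29.3 to 52.9 CPM on chow (log2 difference -0.85, adjusted p = 2.38e-05). Serpinb2, Serpina5 and A2m had too few counts to be tested. With DESeq2 or with no low count filter all 11 were tested, of which 5 rose and 1 fell, and the median log2 difference of the list was then 0.38 or 0.37, against 0.01 over the 8. Of all 20211 genes in those fits, 3794 rose with DESeq2 and 3659 with no filter.

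The substrate and the plasma regulators of fibrinolysis did not pass the test. Plg, plasminogen, had 1188, 1462 and 1967 CPM (lowest, median, highest) on western diet and 1379, 1589 and 2017 CPM on chow, with a log2 difference of -0.11 ± 0.11 (SE; adjusted p = 0.419). Serpinf2, the plasma inhibitor of plasmin, had medians of 647 CPM on western diet and 657 CPM on chow (log2 difference -0.04, adjusted p = 0.80). Hrg, histidine-rich glycoprotein, which binds plasminogen, had medians of 693 CPM on western diet and 683 CPM on chow (log2 difference 0.01, adjusted p = 0.962). The groups overlapped for all 3. Cpb2 encodes the carboxypeptidase that shields fibrin from plasmin. Its median was 321 CPM on western diet and 295 CPM on chow, with a log2 difference of 0.32 ± 0.16 (SE; adjusted p = 0.110), and 1 library, western diet replicate 4 at 705 CPM, stood far above the rest, which reached 415 CPM on western diet and 361 CPM on chow.

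Among the genes of the vessel wall, Procr and Vwf rose, and Tfpi and Thbd did not pass. Procr encodes the endothelial receptor that presents protein C for activation. It had 2.49, 3.36 and 4.53 CPM (lowest, median, highest) on western diet and 1.08, 2.05 and 3.73 CPM on chow, which is 14 to 39.5 counts per western diet library and 6.5 to 24 counts per chow library. All 8 western diet libraries lay above the chow median, and 3 lay above chow replicate 2, the highest chow library. The log2 difference was 0.72 ± 0.22 (SE), 1.65-fold (edgeR, adjusted p = 0.00969).

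Vwf encodes von Willebrand factor, which tethers platelets and carries factor VIII. Its levels were 20.7, 33.6 and 56.4 CPM on western diet and 16.4, 19.3 and 33.3 CPM on chow. Western diet replicate 4 was the highest library, and all 8 western diet libraries lay above the chow median. The fitted log2 difference came to 0.55 ± 0.19 (SE), 1.46-fold (edgeR, adjusted p = 0.0231). Without western diet replicate 4 it was 0.40, and the call was lost (adjusted p = 0.0553), whereas it held in the other 16 leave-one-out fits, where the lowest adjusted p was 0.00944.

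Tfpi encodes the inhibitor of the tissue factor complex, and Thbd encodes thrombomodulin, which turns thrombin towards protein C. Tfpi had medians of 14.3 CPM on western diet and 11.1 CPM on chow, with western diet replicate 1, at 7.94 CPM, below every chow library (log2 difference 0.34 ± 0.15 SE; adjusted p = 0.0640). It passed with library size alone and relative to hepatocyte markers. Without western diet replicate 1 the difference was 0.41, and it passed (adjusted p = 0.0159), as it did without western diet replicate 6 or chow replicate 9, while other leave-one-out fits gave up to 0.145. Thbd had medians of 11.8 CPM on western diet and 9.77 CPM on chow (log2 difference 0.30 ± 0.20 SE; adjusted p = 0.229). Chow replicate 2, at 19.9 CPM, was the highest of all 17 libraries for Thbd, and without it the difference was 0.48, which passed (adjusted p = 0.0240), while other leave-one-out fits gave up to 0.427. That library was the highest chow library for 5 of the 35 genes, Vwf, F13a1, Thbd, Procr and Plat. For more of them it was the lowest chow library, namely Klkb1, Kng2, F11, F9, F7, F10, F13b, Serpind1, Pros1, Proz and Cpb2.

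Of 8 markers of vascular endothelium, 3 rose and none fell, against 24.8% and 23.6% of all tested genes. Their sums were 245 to 433 CPM on western diet and 202 to 314 CPM on chow. Those that rose were Vcam1, Cd34 and Plvap. The other 5, Pecam1, Cdh5, Emcn, Sox17 and Mmrn1, did not pass, and the lowest log2 difference on the list was -0.64. Chow replicate 2 held the highest of the chow sums, at 314 CPM, and western diet replicate 4 the highest western diet sum, at 433 CPM. Of 8 markers of sinusoidal endothelium, 3 rose and 1 fell, against the same shares, with sums of 364 to 733 CPM on western diet and 472 to 617 CPM on chow. The part of these cells in the levels of Procr, Vwf, Thbd and Tfpi was not tested.

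Of the contact and intrinsic pathway genes that hepatocytes make, Klkb1 and F12 fell. Klkb1 encodes plasma prekallikrein, which factor XIIa activates on a surface. It had 302, 403 and 472 CPM (lowest, median, highest) on western diet and 410.0, 626 and 745 CPM on chow. All 8 western diet libraries lay below the chow median, and 5 lay below every chow library. On the log2 scale the difference was -0.63 ± 0.11 (SE), 1.55-fold lower (edgeR, adjusted p = 1.40e-04). Chow replicates 1 and 2, at 473 and 410.0 CPM, were the chow libraries nearest to western diet.

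F12 encodes factor XII, which starts the contact pathway. It had 413, 540.5 and 591 CPM on western diet, against 546, 591 and 677 CPM on chow. Of the 8 western diet libraries, 4 lay below the lowest chow library, and the others lay within the chow range. Western diet minus chow gave a log2 difference of -0.21 ± 0.078 (SE), 1.16-fold lower (edgeR, adjusted p = 0.0281), and it no longer passed in 5 of 17 leave-one-out fits, those without western diet replicate 5, 7 or 8 or chow replicate 8 or 9.

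F11, factor XI, had medians of 61.1 CPM on western diet and 46.6 CPM on chow, and chow spanned 28.6 to 74.1 CPM, a range that held all western diet values, which ran from 47.2 to 70.04 CPM (log2 difference 0.29 ± 0.17 SE; adjusted p = 0.167). F11 and Klkb1 are neighbours and related genes, 54.2 kb together at chr8:45240659-45294835 (mm10), with no other protein-coding gene between them. They lay on opposite sides of 0, and only Klkb1 passed. The difference between them was not tested.

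The kininogens are the cofactors of prekallikrein and the source of bradykinin. Kng1 had medians of 948 CPM on western diet and 1049 CPM on chow (log2 difference -0.05, adjusted p = 0.718), and Kng2 had 345 CPM on western diet and 289.5 CPM on chow (log2 difference 0.21, adjusted p = 0.109). Both genes are near-identical copies, so reads may have been split between them, and neither value is certain. Counted within each library, Kng1 over Kng2 was 2.55 to 3.49 with a median of 2.63 on western diet, and 2.92 to 3.79 with a median of 3.31 on chow. They lie with Hrg in 131 kb at chr16:22951072-23082078 (mm10).

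F9, factor IX, had medians of 337 CPM on western diet and 358 CPM on chow (log2 difference -0.07, adjusted p = 0.459). F8, factor VIII, which sinusoidal endothelium makes, had 14.2, 47.7 and 53.3 CPM on western diet and 27.7, 41.5 and 66.0 CPM on chow. Its log2 difference was 0.01 ± 0.22 (SE; adjusted p = 0.982), the widest error among the contact and intrinsic genes. Western diet replicate 1, at 14.2 CPM, was the lowest of all libraries for F8 and also held the lowest sum of sinusoidal markers, 364 CPM.

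Of the extrinsic and common pathway, F7 and F5 fell. F7 encodes factor VII, the partner of tissue factor. It had 81.3, 105 and 136 CPM on western diet and 100.2, 129 and 171 CPM on chow, and 3 western diet libraries lay below every chow library. Its log2 difference was -0.28 ± 0.11 (SE), 1.22-fold lower (edgeR, adjusted p = 0.0452). F7 did not pass in 12 of the 17 leave-one-out fits. It passed without western diet replicate 3 or 4 or chow replicate 1, 2 or 3.

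F5 encodes factor V, the cofactor of factor Xa. Its levels were 826, 953 and 1077 CPM on western diet, against 872, 1193 and 1278 CPM on chow. The chow libraries nearest to western diet were again replicates 1 and 2, at 872 and 963 CPM, and the other 7 lay above every western diet library. The log2 difference was -0.27 ± 0.086 (SE), 1.21-fold lower (edgeR, adjusted p = 0.0130).

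F10, factor X, had medians of 363 CPM on western diet and 433 CPM on chow (log2 difference -0.20 ± 0.088 SE; adjusted p = 0.0718). Western diet replicate 4, at 501 CPM, was the highest of all libraries for F10, whereas 5 western diet libraries were below all chow ones. Without replicate 4 the difference was -0.26 and passed (adjusted p = 0.00968), while other leave-one-out fits gave up to 0.158. F2, prothrombin, had medians of 1076 CPM on western diet and 1217 CPM on chow (log2 difference -0.15 ± 0.11 SE; adjusted p = 0.280). F3, tissue factor, which sets off the extrinsic pathway, had medians of 9.04 CPM on western diet and 8.43 CPM on chow, with overlapping groups (log2 difference 0.13, adjusted p = 0.543). F7, F10 and Proz lie side by side in 50.5 kb at chr8:13025506-13076026 (mm10), and their log2 differences were -0.28, -0.20 and -0.07.

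Fibrinogen, the substrate of the clot, is built from 3 chains whose genes lie within 42.1 kb at chr3:83007724-83049863 (mm10). Fga had 1354, 1810.4 and 3323 CPM (lowest, median, highest) on western diet and 1338, 1708 and 2166 CPM on chow. Fgb had 1106, 1429 and 2479.7 CPM on western diet, against 1111, 1427 and 1869 CPM on chow. Fgg had 946, 1246 and 2218 CPM on western diet and 972, 1259 and 1623 CPM on chow. The medians were close, and the western diet libraries were spread more widely, mostly upwards. The log2 differences were 0.18 ± 0.15, 0.13 ± 0.15 and 0.12 ± 0.15 (SE), with adjusted p of 0.348, 0.506 and 0.547 (edgeR). None of the 3 chains passed. Relative to hepatocyte markers, where the median of all genes was 0.27, all 3 did, with log2 differences of 0.42, 0.37 and 0.36 (adjusted p = 0.00907, 0.00861 and 0.0128).

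The chains followed each other from library to library. On western diet (n = 8) the log2 CPM of Fgb and Fgg had a Pearson r of 0.999 and a Spearman rho of 1, and those of Fga with Fgb and with Fgg had r of 0.984 and 0.989. Each had an adjusted p of 1.49e-04 in an exact permutation test over 40320 orders, two-sided and adjusted over 6 relations. On chow (n = 9) r was 0.991 for Fgb and Fgg, 0.970 for Fga and Fgb and 0.979 for Fga and Fgg, with exact permutation adjusted p of 1.49e-04, 0.00220 and 0.00128. Without the 2 libraries farthest from the median of the first gene, r was 0.998, 0.988 and 0.992 on western diet. On chow it was then 0.854, 0.610 and 0.725, so the chow relations with Fga rested in large part on 2 libraries. The Spearman rho of Fga and Fgg on chow was 0.65, which did not pass (exact permutation p = 0.0666). In counts, Fgg over Fgb lay between 0.855 and 0.895 on western diet and between 0.858 and 0.904 on chow. The ratio of Fga to Fgb was 1.14 to 1.34 with a median of 1.25 on western diet and 1.15 to 1.26 with a median of 1.204 on chow. Such an order of libraries was not particular to the chains. Like Fgb and Fgg, Plg and Hrg were highest in western diet replicate 4 and lowest in western diet replicate 7. Their correlations with the chains were not tested. Counts of the chains also grew less than in proportion to library depth, with slopes of 0.33 to 0.42. With depth removed within each diet, the 6 relations still passed.

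Western diet replicate 4 set the upper end of the chains, and it was the highest western diet library for 18 of the 35 genes. It was also the highest for 18 of 19 genes on a list of acute phase and IL-6 signalling genes, the response in which liver raises fibrinogen. Outside both sets, Lrp1, Pzp, Serping1, Hnf4a and Pecam1 were also highest there, whereas Alb, Apoa1 and Ttr were highest in western diet replicate 1. The share of all tested genes that were highest in replicate 4 was not counted. Saa2, a serum amyloid A, had 864 CPM there and at most 191 CPM in the other western diet libraries. Orm2, an orosomucoid, had 421 CPM there and at most 84.7 CPM in the others. Of the 19 genes, 7 rose and none fell over the whole group, against 24.8% and 23.6% of all tested genes. With library size alone 11 rose, as did 4485 of all 13204 genes. Relative to hepatocyte markers 13 rose, as did 5171 of all 13204. Without that library the log2 difference was 0.02 for Fga, -0.0018 for Fgb and -0.02 for Fgg. The part of that response in the values of this library was not tested.

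**Figure D3:**
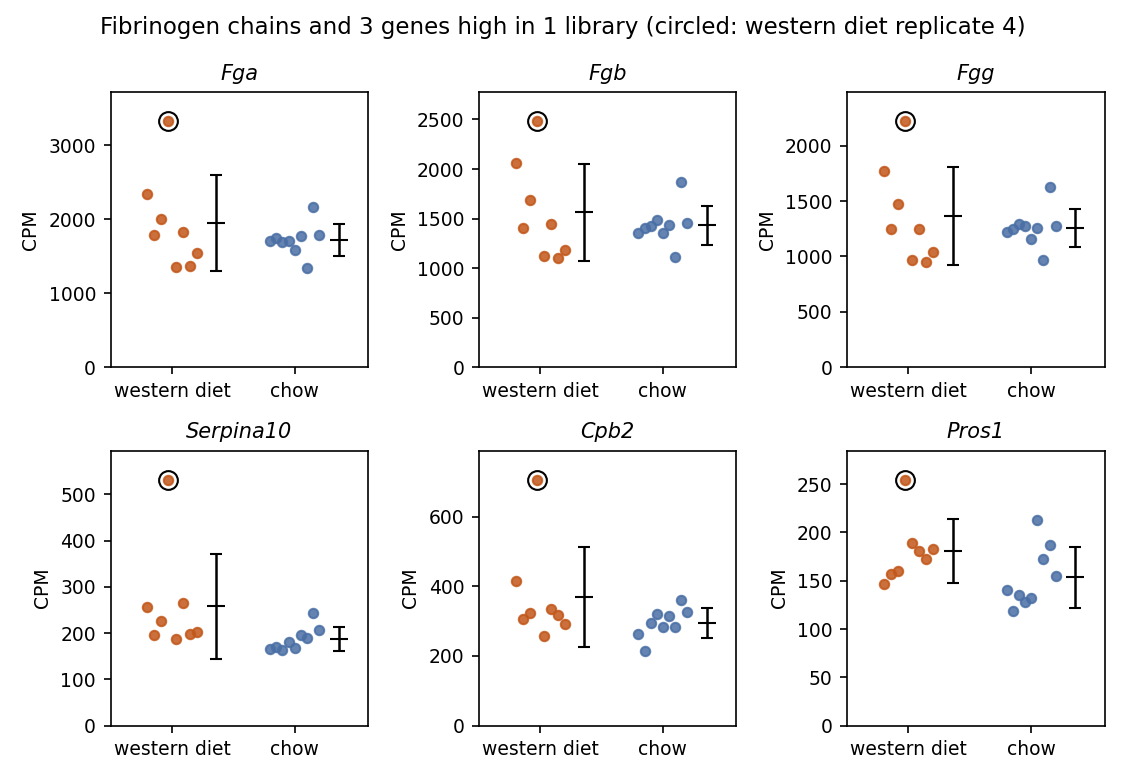
Level in each library, in CPM, of the 3 fibrinogen chains and of Serpina10, Cpb2 and Pros1, with western diet (n = 8) left and chow (n = 9) right, and mean ± SD beside the points. The circled point is western diet replicate 4, the highest of all libraries in each panel, such as 531 CPM for Serpina10 against 264 CPM in the next western diet library.

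Factor XIII crosslinks fibrin and has a catalytic and a carrier subunit. F13b, the carrier subunit from hepatocytes, had 239, 259.7 and 276 CPM on western diet and 228, 336 and 370.3 CPM on chow. The western diet libraries lay close together, and all 8 were below the chow median, while chow replicate 2, at 228 CPM, was the lowest library of all. The fitted log2 difference came to -0.32 ± 0.082 (SE), 1.25-fold lower (edgeR, adjusted p = 0.00316). F13a1, the catalytic subunit, known from macrophages and platelets, had medians of 4.32 CPM on western diet and 2.33 CPM on chow (log2 difference 0.66 ± 0.28 SE; adjusted p = 0.0606). Chow replicate 2, at 6.69 CPM, was above 7 of the 8 western diet libraries, and without it the difference was 0.94 and passed (adjusted p = 0.00257). F13a1 also passed without western diet replicate 8 or chow replicate 8, and other leave-one-out fits gave an adjusted p of up to 0.140. It passed with limma-voom (0.76, adjusted p = 0.0211), with library size alone (0.78, adjusted p = 0.0278), relative to hepatocyte markers (0.93, adjusted p = 0.0125) and without the 2 libraries that carried pancreatic transcripts (0.90, adjusted p = 0.00557). All 8 macrophage markers rose and 1 of the 2 tested platelet markers, Pf4, did, and their part in F13a1 was not tested.

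**Figure D4:**
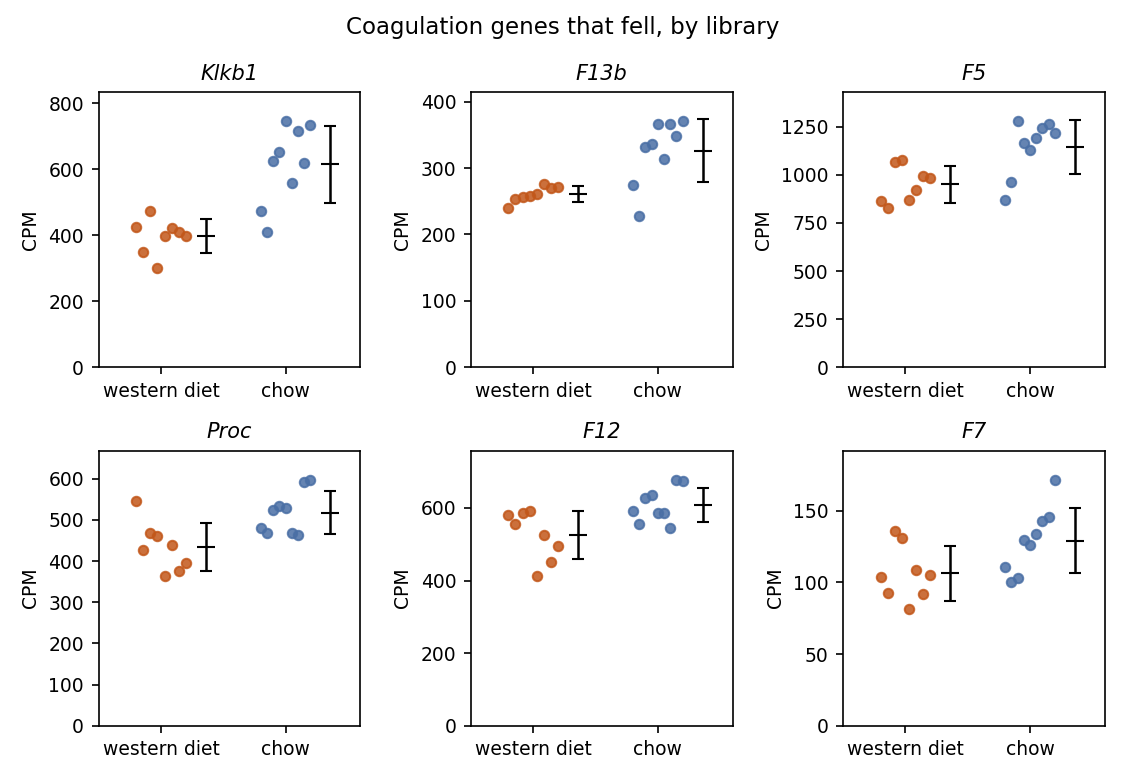
Level in each library, in CPM, of the 6 genes that fell, with western diet (n = 8) left and chow (n = 9) right, and mean ± SD beside the points. The groups overlap in every panel, and for Klkb1, F13b and F5 the 2 lowest chow points are replicates 1 and 2.

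Of the plasma anticoagulants that hepatocytes make, Proc fell and Serpina10 rose. Proc encodes protein C, the protease that inactivates factors Va and VIIIa. It had 365, 433 and 546 CPM on western diet and 464, 524 and 597 CPM on chow. Most western diet libraries, 6 of 8, were below every chow library, and western diet replicate 1, the shallowest, was the highest western diet library at 546 CPM. On the log2 scale the difference was -0.25 ± 0.083 (SE), 1.19-fold lower (edgeR, adjusted p = 0.0168).

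Serpina10 encodes the protein Z-dependent inhibitor of factor Xa. Its levels were 187, 214 and 531 CPM on western diet and 164, 180.5 and 244 CPM on chow. Western diet replicate 4 was the one at 531 CPM, and the others reached 264 CPM. Western diet minus chow gave a log2 difference of 0.46 ± 0.18 (SE), 1.38-fold (edgeR, adjusted p = 0.0376). Without replicate 4 it was 0.22 and did not pass (adjusted p = 0.0588), and it did not pass either without western diet replicate 1 or 6 or chow replicate 1, 2, 3, 4, 5 or 7, with adjusted p between 0.0241 and 0.0625 over all 17 such fits. Nor did Serpina10 pass with no low count filter (0.44, adjusted p = 0.0699). Its cofactor Proz, protein Z, had medians of 425 CPM on western diet and 458 CPM on chow (log2 difference -0.07, adjusted p = 0.599).

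Pros1, protein S, the cofactor of activated protein C, had medians of 176 CPM on western diet and 140.4 CPM on chow (log2 difference 0.23 ± 0.12 SE; adjusted p = 0.113). Its highest library was again western diet replicate 4, at 254 CPM, without which the difference was 0.15. Serpinc1, antithrombin, the main inhibitor of thrombin and factor Xa, had medians of 928 CPM on western diet and 1118 CPM on chow (log2 difference -0.21 ± 0.11 SE; adjusted p = 0.114). It passed without western diet replicate 1, at -0.28 (adjusted p = 0.0184), and other leave-one-out fits gave up to 0.225. Serpind1, heparin cofactor II, had 482 CPM on western diet and 557 CPM on chow (log2 difference -0.13, adjusted p = 0.206), and it overlaps Pi4ka in the genome, so that some of its reads could belong to that gene. The groups overlapped for all of these.

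The levels of the most abundant of these genes moved with the depth of the library. Over all tested genes with diet as a term, the median slope of log2 count on log2 library total was 1.17 for genes with 100 to 1000 counts on average and 0.57 for the 26 genes with more than 10000. A slope of 1 means counts in proportion to the library total. Among the 35, the 8 genes with the most counts, 6516 to 11608 on average, had a median slope of 0.49. Fgg had 0.33 ± 0.14, Fgb 0.34 ± 0.13, F2 0.48 ± 0.036 and Serpinc1 0.50 ± 0.035 (slope ± SE, 17 libraries), whereas F5, in the same range of counts, had 1.13. Fgg had 1770.2 CPM in western diet replicate 1, the shallowest library, and 946 CPM in western diet replicate 7, the deepest western diet library. How duplicate reads were treated is not given in the sources used here. Whether the low slopes went with narrowed diet differences in these genes was not tested.

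With library depth as a term in the fit, an alternative chosen after the data were seen, 10 of the 35 genes fell in place of 6, and 6 rose. Of all 13204 genes, 3278 fell and 3276 rose in that fit, against 3122 and 3271 without depth. The genes added were Serpinc1 (log2 difference -0.27, adjusted p = 2.45e-05), F2 (-0.22, adjusted p = 3.18e-04), F10 (-0.23, adjusted p = 0.00755) and Plg (-0.17, adjusted p = 0.0162). Serpina10 no longer passed (0.40, adjusted p = 0.0540). Of 11 hepatocyte markers, 8 fell in that fit and 2, Alb and Hnf4a, in the fit without depth. Their summed level was 13169 to 21341 CPM on western diet and 17045 to 23039 CPM on chow. The part of hepatocyte content in the falls of Klkb1, F13b, F5, Proc, F12 and F7 was not tested beyond the scaling to hepatocyte markers, under which only Klkb1 fell.

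**Figure D5:**
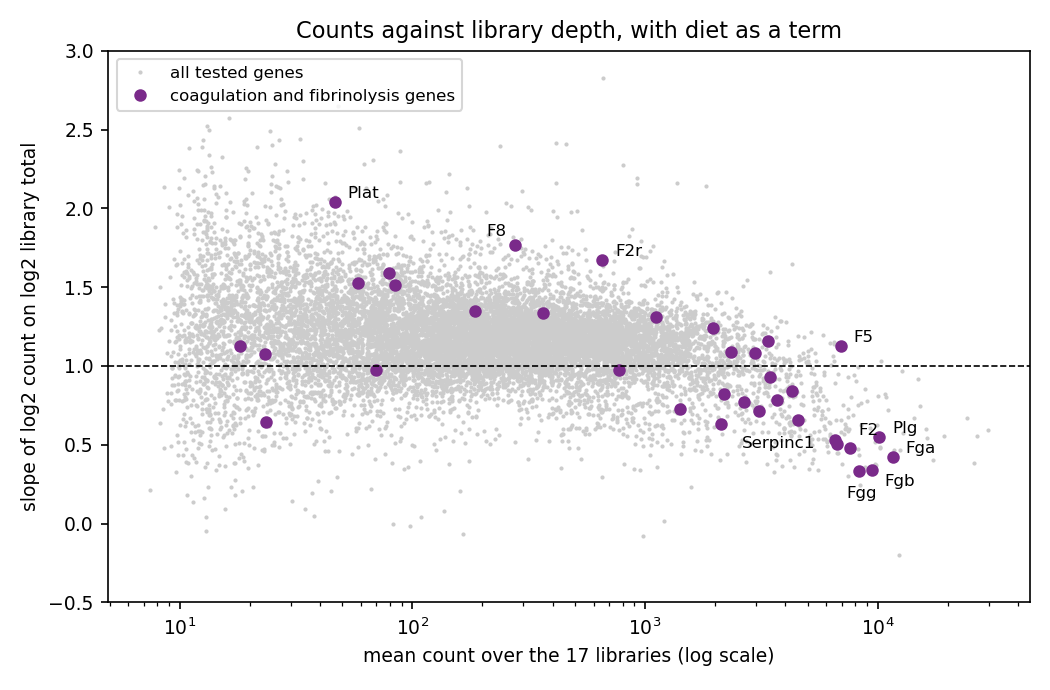
Slope of log2 count on log2 library total, with diet as a term, against mean count over the 17 libraries (log scale). Grey points are all 13204 tested genes and purple points the 35 coagulation and fibrinolysis genes. The dashed line at 1 marks counts in proportion to the library total, and Fgg (0.33), Fgb (0.34), Fga (0.42), F2 (0.48) and Serpinc1 (0.50) lie well below it.

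Many clotting factors, among them prothrombin, factors VII, IX and X and proteins C, S and Z, work only after vitamin K-dependent carboxylation of their Gla domain. Of 10 genes of the vitamin K cycle and other Gla proteins, 3 rose and 3 fell, against 24.8% and 23.6% of all tested genes. The carboxylase Ggcx had medians of 88.2 CPM on western diet and 84.3 CPM on chow (log2 difference 0.15, adjusted p = 0.154), and the reductase Vkorc1 had 135 CPM on western diet and 152 CPM on chow (log2 difference -0.16, adjusted p = 0.113). Neither passed. Its paralogue Vkorc1l1 fell by 0.36 on the log2 scale (adjusted p = 2.57e-04), as did Aifm2, a further vitamin K reductase, by 0.53 (adjusted p = 3.87e-04), and Prrg2. The rises were those of Mgp, Gas6 and Prrg4. Gas6, a Gla protein related to protein S, had 147 to 338 CPM on western diet and 92.4 to 143 CPM on chow with no overlap, and its log2 difference was 0.93 ± 0.13 (SE; adjusted p = 8.98e-06). Relative to hepatocyte markers the 3 falls were lost and 6 of the 10 genes rose, and with library size alone 5 rose and 3 fell. Of all 13204 genes, 5171 rose and 499 fell under the first scaling, and 4485 rose and 1615 fell under the second.

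On a list of 12 other coagulation regulators and receptors, 10 were tested, of which 4 rose and 2 fell, against the same 24.8% and 23.6%. F2rl1, which encodes PAR2, a receptor cut by factor Xa with tissue factor, had 0.930 to 5.30 CPM on western diet and 0.386 to 1.61 CPM on chow (log2 difference 1.51 ± 0.32 SE; adjusted p = 5.79e-04). Fgl2, a prothrombinase of macrophages and endothelium, rose by 1.04 (adjusted p = 0.00985), and Cd36, a thrombospondin and fatty acid receptor, by 0.60 (adjusted p = 5.06e-04). Fgl2 was highest in the 2 libraries with pancreatic transcripts, at 63.1 CPM in western diet replicate 5 and 35.8 CPM in chow replicate 2. The other libraries held 16.2 to 31.5 CPM of Fgl2 on western diet and 8.62 to 23.0 CPM on chow. Adamts13, the protease of stellate cells that cuts von Willebrand factor, rose by 0.33 (adjusted p = 0.0321), but did not pass in 8 of the 17 leave-one-out fits, with no low count filter, with scaling without the 50 most abundant genes or without the 2 libraries with pancreatic transcripts (0.29, adjusted p = 0.0706). Lman1 encodes the cargo receptor that carries factors V and VIII out of the endoplasmic reticulum. It had 266 to 314 CPM on western diet and 332 to 396 CPM on chow, every western diet library below every chow library (log2 difference -0.31 ± 0.054 SE; adjusted p = 9.50e-05). Its partner Mcfd2 had medians of 299 CPM on western diet and 332 CPM on chow (log2 difference -0.16, adjusted p = 0.0642). Tfpi2, an inhibitor of plasmin and of tissue factor complexes, fell by 0.24 (adjusted p = 0.0428), but did not pass with library size alone, without the 2 libraries with pancreatic transcripts (-0.19, adjusted p = 0.0770) or in 9 of the 17 leave-one-out fits. Relative to hepatocyte markers Tfpi2 was at 0.03 and Lman1 at -0.04, and neither passed.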

How the data were processed

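Whole liver of 8 western diet and 9 chow mice was sequenced, 1 library per mouse (NEBNext Ultra libraries, paired-end NovaSeq reads, per the labels' protocols). The treatment field gives the diet; the source name reads western diet for all 17 samples and was not used. The authors deposited expected counts per gene symbol in steps of 0.5, not scaled between libraries, with STAR 2.4.1c, HOMER and mm10 named in the submitters' processing notes. Options, strand, annotation, and the handling of duplicate and multiply matching reads: not given in the sources used here. Thus overlapping, antisense and near-identical genes can share reads.

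Each of the files held 24940 genes, and 3 without a value were left out. Values were rounded, filtered with filterByExpr and fitted with edgeR 4.0.16 (R 4.3.3; TMM, robust quasi-likelihood fit, prior count 0.125, diet alone, 13204 genes, two-sided, Benjamini-Hochberg at 0.05), after the steps were tested on simulated data. An SE is the size of a log2 difference divided by the root of its F statistic. Biological variation between replicates, from the common dispersion, came to 19.0%. Alternatives were RLE factors, library size alone, scaling to hepatocyte markers or without the 50 genes highest in counts, DESeq2 1.42.0, limma-voom (limma 3.58.1), no filter, a floor of 1 CPM in 8 libraries or more, each of the 17 libraries left out, and western diet replicate 5 with chow replicate 2 left out. Library depth as a term was chosen after seeing the data. The genes and lists were chosen with earlier results of these data known. All 35 genes are named, and of each other list up to 3 that rose and 3 that fell most; other list genes were picked with their values in view. A gene left out of the list of other fibrinolysis regulators is not reported here. Positions are from RefSeq, GRCm38.p6, the assembly also called mm10. Python 3.11.15, scipy 1.17.1 and matplotlib 3.10.9 made the remaining steps.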

Additional observations from a re-analysis of the deposited data

Results flagged for a closer look

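In 9 of 70 groups, 1 gene in 1 diet, a single library stood apart from the others by Dixon's criterion, which chance meets in about 1 in 20 groups. On western diet, replicate 4 stood apart for 3 genes: Serpina10 at 531 CPM with the others at 187 to 264 CPM, Cpb2 at 705 CPM with the others at 258 to 415 CPM, and Pros1 at 254 CPM with the others at 147 to 189 CPM. Western diet replicate 3 had 642 CPM of Serpind1, with the others at 438 to 531 CPM. On chow, replicate 2, the library with most pancreatic transcripts, had 6.85 CPM of Plat with the others at 0.718 to 3.05 CPM, and 19.9 CPM of Thbd with the others at 7.24 to 10.9 CPM. Chow replicate 8, the shallowest chow library, had 1869 CPM of Fgb with the others at 1111 to 1480.4 CPM, and 1623 CPM of Fgg with the others at 972 to 1290.3 CPM. Chow replicate 3 had 66.0 CPM of F8, with the others at 27.7 to 43.6 CPM.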

How the results depend on the processing

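The rises of Plat, Plau, Plaur, F2r and Procr and the fall of Klkb1 passed under every alternative run, including each of the 17 fits without 1 library. With library size alone, 12 of the 35 genes rose and 1 fell, and of all genes 4485 rose and 1615 fell. Relative to hepatocyte markers, 17 rose and 1 fell, and of all genes 5171 rose and 499 fell, against 3271 and 3122 with TMM. With library depth as a term, 10 of the 35 and 3278 of all 13204 genes fell. Leaving out 1 library gave 5 to 9 of the 35 that rose and 4 to 7 that fell. With library size alone the genes gained as rises were Pros1, Kng2, Tfpi, Cpb2 and F13a1, and relative to hepatocyte markers also F11, Hrg and the 3 fibrinogen chains. Of these, Pros1 also passed without chow replicate 6 (0.31) and Kng2 without chow replicate 8 (0.26). F10 fell without the 50 most abundant genes (-0.22), and Serpind1 as a fall without western diet replicate 3 (-0.19). Low counts limit Plat, Plaur, Procr and F13a1. Genes that did not pass, or small falls, changed sign as follows. F8 was at -0.012 with DESeq2, -0.019 with voom, -0.017 with no filter, -0.016 without the 50 most abundant genes and -0.052 without western diet replicate 5 and chow replicate 2. Hrg was at -0.0046 with DESeq2, -0.046 with depth as a term, -0.013 with no filter and -0.017 without the 50 most abundant genes. With library size alone, Kng1 was at 0.064, F9 at 0.049, Proz at 0.051, Plg at 0.0077 and Serpinf2 at 0.082. Relative to hepatocyte markers, F12 was at 0.046, Kng1 at 0.20, F9 at 0.20, F10 at 0.063, F5 at 0.0090, F2 at 0.10, Serpinc1 at 0.040, Serpind1 at 0.14, Proc at 0.0076, Proz at 0.20, Plg at 0.14 and Serpinf2 at 0.22. With 1 library left out, F8 ranged from -0.054 to 0.12, Hrg from -0.060 to 0.056, Serpinf2 from -0.11 to 0.011, Kng1 from -0.12 to 0.0010, Fgb from -0.0018 to 0.19 and Fgg from -0.020 to 0.18. The cause of these changes was not tested. No paired analysis was possible because no label matches a western diet mouse with a chow mouse.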

Other observations

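Transcription factors that set the hepatocyte programme were mostly lower on western diet. Of 16 on the list, 9 fell and 1 rose, against 23.6% and 24.8% of all tested genes. Foxa1 had medians of 30.5 CPM on western diet and 48.8 CPM on chow (log2 difference -0.65 ± 0.13 SE; edgeR, adjusted p = 3.33e-04), Ppara, the fatty acid sensor, 481 CPM on western diet and 759 CPM on chow (-0.58 ± 0.11 SE; adjusted p = 3.62e-04), and Nr5a2 73.6 CPM on western diet and 106 CPM on chow (-0.56 ± 0.096 SE; adjusted p = 8.89e-05). Hnf4a, a factor with known sites in clotting factor promoters, had 873 CPM on western diet and 1174 CPM on chow (-0.39 ± 0.076 SE; adjusted p = 2.85e-04). The one that rose, Cebpb, had medians of 129 CPM on western diet and 91.1 CPM on chow (0.44 ± 0.17 SE; adjusted p = 0.0452), and its call was lost with no filter, with scaling without the 50 most abundant genes and in 10 of 17 leave-one-out fits. Relative to hepatocyte markers, none of the 9 falls passed, and with library size alone Foxa2, Foxa3 and Nr1h4 did not. Foxa2 also did not pass in 11 of 17 leave-one-out fits, nor without the 2 libraries with pancreatic transcripts (-0.25, edgeR, adjusted p = 0.103).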
